A study of Mus musculus with 2 samples.

Results

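A set of 10 genes that mark astrocytes and carry out their transport and metabolic work were examined in DNase-seq of mouse left cerebral cortex: Aqp4, Slc1a2, Slc1a3, Gja1, Gjb6, Glul, Aldoc, Aldh1l1, Gfap and Sox9. They are 10 of 21884 protein-coding genes of unique symbol and were chosen by name as known astrocyte genes. No measured value set the choice, but earlier results of these data were known when it was made. Each gene was described by the peaks, footprints and per-base false discovery rates in its gene body extended by 10 kb at both ends. The 2 libraries, called replicate 1 and replicate 2, come from B6CASTF1/J males, an F1 hybrid of C57BL/6 and the wild-derived CAST line, aged 18 to 20 months, with no treatment given in the labels. They form 1 group, so no condition was compared. Both libraries carry the same donor entry and separate tissue samples, so the spread between them may be technical, and all values are descriptions with no test. DNase I cuts open chromatin more readily than closed chromatin; a peak is a stretch with many cuts, and a footprint is a short stretch within it that is cut less than its surroundings. The signal of a peak is a value given by the authors, whose scaling is not stated, and it is used here to describe and rank peaks.

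Astrocytes clear glutamate and potassium from the space around synapses, move water at the walls of blood vessels, and are joined to each other by gap junctions. Aqp4 is the main water channel of the brain, Slc1a2 (GLT-1) and Slc1a3 (GLAST) take up glutamate, and Glul turns that glutamate into glutamine. Gja1 and Gjb6 are the connexins of astrocyte gap junctions, Aldoc is a brain aldolase of glycolysis, Aldh1l1 is a folate enzyme widely used as an astrocyte marker, Gfap is the astrocyte intermediate filament, and Sox9 is a transcription factor of astrocyte identity. The tissue was not sorted, so fewer astrocytes in a sample and less open chromatin per astrocyte cannot be told apart.

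To show what the accessible sites look like, the strongest peak of each gene by mean signal is printed below, among peaks present in both libraries that lay in an intron, between genes or at the gene's own start, and not at the start of another gene alone. Stretches were cut to leave out untranslated regions. For 8 genes one is shown; no sequence is shown for Aqp4, and Gjb6 had no stretch of at least 40 bases left. All are reference sequence of GRCm38.p6 (mm10), read 5′ to 3′ on the strand of the gene, and capitals mark bases that lay in footprints of both libraries. The sites are Gfap chr11:102900901-102901100 (minus strand), Slc1a3 chr15:8627201-8627380 (minus), Aldh1l1 chr6:90538061-90538240 (plus), Gja1 chr10:56369241-56369400 (plus), Slc1a2 chr2:102704961-102705152 (plus), Glul chr1:153899681-153899900 (plus), Sox9 chr11:112782001-112782223 (plus) and Aldoc chr11:78322921-78322967 (plus).
Gfap: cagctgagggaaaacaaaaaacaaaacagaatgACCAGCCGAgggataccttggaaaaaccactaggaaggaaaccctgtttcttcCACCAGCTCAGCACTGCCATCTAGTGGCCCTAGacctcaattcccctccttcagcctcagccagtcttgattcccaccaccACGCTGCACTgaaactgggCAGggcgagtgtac
Slc1a3: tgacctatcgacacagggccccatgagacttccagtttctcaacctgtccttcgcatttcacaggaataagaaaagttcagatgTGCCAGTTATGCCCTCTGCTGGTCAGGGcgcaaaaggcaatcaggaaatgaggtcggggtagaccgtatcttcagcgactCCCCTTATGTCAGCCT
Aldh1l1: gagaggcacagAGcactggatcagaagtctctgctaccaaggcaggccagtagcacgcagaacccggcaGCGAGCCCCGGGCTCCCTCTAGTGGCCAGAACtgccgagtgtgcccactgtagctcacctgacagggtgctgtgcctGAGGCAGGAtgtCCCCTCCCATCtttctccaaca
Gja1: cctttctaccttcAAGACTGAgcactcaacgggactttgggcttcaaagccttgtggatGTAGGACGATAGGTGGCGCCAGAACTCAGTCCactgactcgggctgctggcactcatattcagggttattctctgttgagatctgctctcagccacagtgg
Slc1a2: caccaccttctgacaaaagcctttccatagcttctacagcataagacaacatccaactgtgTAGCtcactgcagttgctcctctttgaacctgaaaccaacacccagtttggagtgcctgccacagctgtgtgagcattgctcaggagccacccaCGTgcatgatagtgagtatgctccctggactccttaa
Glul: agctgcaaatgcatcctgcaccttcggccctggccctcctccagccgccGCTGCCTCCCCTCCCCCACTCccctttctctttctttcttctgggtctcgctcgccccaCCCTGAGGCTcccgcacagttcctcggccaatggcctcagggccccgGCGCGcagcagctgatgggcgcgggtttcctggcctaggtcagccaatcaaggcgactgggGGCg
Sox9: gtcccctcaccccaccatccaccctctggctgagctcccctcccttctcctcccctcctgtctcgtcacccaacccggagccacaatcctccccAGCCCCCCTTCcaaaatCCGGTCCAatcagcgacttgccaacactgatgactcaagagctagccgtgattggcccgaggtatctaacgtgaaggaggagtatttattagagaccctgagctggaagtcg
Aldoc: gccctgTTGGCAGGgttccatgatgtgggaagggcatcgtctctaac

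The first 4 sequences, from sites more than 1 kb from every basic-set TSS, each held 1 long protected stretch shared by the libraries. The longest run of capitals was 33 bases for Gfap, 28 for Slc1a3, 32 for Aldh1l1 and 32 for Gja1. In 3 of these runs lay a match to the consensus of CTCF, a zinc finger protein that holds chromatin loops and domain borders. The match covered bases 102 to 113 of the Gfap sequence and 95 to 106 of the Slc1a3 sequence with 0 mismatches, and bases 83 to 94 of the Aldh1l1 sequence with 1 mismatch; all 12 bases were in capitals in each. The best match in the Gja1 sequence had 3 mismatches and is not counted as one. In the promoter sequences the longest shared run was 21 bases for Glul, 11 for Sox9 and 8 for Aldoc, and the intronic Slc1a2 site had 4. The Sox9 and Aldoc stretches are 223 and 47 bases cut from replicate 1 peaks of 340 and 260 bp. Their runs therefore cannot be compared with those of the whole distal peaks. The Slc1a2 value depends on the choice of site: a peak of nearly the same mean signal at chr2:102744021-102744200 (2.36 and 1.68), passed over because it lies in a noncoding exon of Gm13872, held a CTCF match with 1 mismatch in footprints of 39 and 26 bp. The run in Aldoc, just before its start site, contained the letters TTGGCA, with all 6 bases in capitals. These letters are the core of the sequence recognised by NFI factors, which are known from astrocyte development. In Aldoc they lay outside the peak of replicate 2, which begins at 78322941. The Sox9 sequence held the same letters on the other strand, at bases 130 to 135, with 0 of 6 bases in capitals. These matches describe letters and do not show which protein was bound.

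The shorter peak lists held 73221 and 111105 peaks, the longer lists 120015 and 178564, and the footprint lists 264450 and 385637 entries in replicates 1 and 2. These numbers stand in for depth, as no read totals were analysed. Among all protein-coding genes 60.7% had a promoter peak, within 1 kb of an annotated transcription start site (TSS), in replicate 1 and 61.2% in replicate 2. In both libraries together the share was 58.7%, and with the longer lists 63.3%. Markers of other cortical cells ranged widely: 9 of 10 neuronal, 7 of 10 oligodendrocyte, 5 of 10 oligodendrocyte precursor, 3 of 10 microglial and 0 of 10 endothelial genes had a promoter peak in both libraries. Replicate 1 gave the higher promoter signal in 75.5% of the 12840 genes with a promoter peak in both.

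A promoter peak was found for 6 of the 10 astrocyte genes in replicate 1 (all genes 60.7%), for 7 in replicate 2 (61.2%) and for 5 in both (58.7%), so the count lay near the background. The 5 were Glul, Aldoc, Slc1a2, Sox9 and Gjb6. Aqp4, Slc1a3 and Gja1 had one in a single library, and Gfap and Aldh1l1 in neither. In the longer lists Slc1a3 and Gja1 were added, giving 7 of 10 (63.3%). By mean signal the order was Glul 3.71 ± 0.0908, Aldoc 2.61 ± 0.0542, Slc1a2 2.12 ± 0.0827, Sox9 2.09 ± 0.495 and Gjb6 0.530 ± 0.0990 (SD, n = 2 for each). The values of Slc1a2 and Sox9 overlapped between libraries, and the other neighbours in this order did not.

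**Figure D1:**
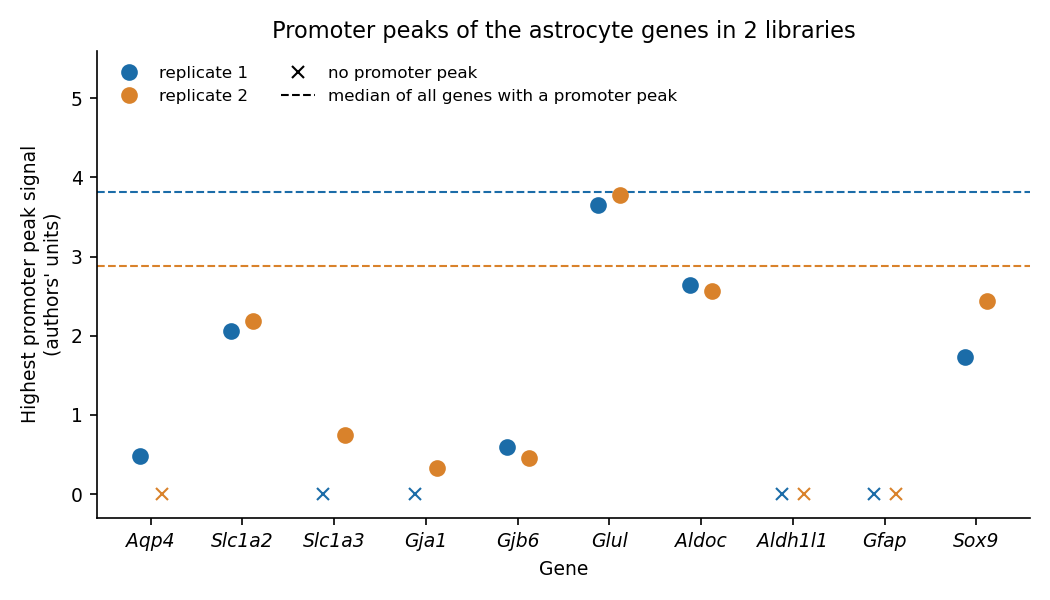
Highest promoter peak signal of each gene (vertical axis, the units of the authors) in replicate 1 (blue) and replicate 2 (orange); crosses mark no promoter peak, and dashed lines the median over all genes with one, 3.82 in replicate 1 and 2.88 in replicate 2. Glul was the highest of the 10 in both libraries, and only in replicate 2 did it lie above the dashed line.

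The 3 genes of water and glutamate transport differed at their promoters. Slc1a2 (chr2:102658659-102790784, plus strand) had several adjacent peaks across its start site, of which the strongest reached 2.07 in replicate 1 and 2.18 in replicate 2. Bases at a false discovery rate of 0.001 or lower within 1 kb of its TSSs numbered 1381 and 1872, the most of the 10 genes, which also have different numbers of TSSs. Slc1a3 (chr15:8634124-8710764, minus strand) had a promoter peak of 0.741 in replicate 2 that covered its start, and none in the shorter list of replicate 1. In the longer list of replicate 1 the same place reached 0.534, and the bases at 0.001 numbered 0 and 166. The start of Slc1a3 was therefore listed weakly, and its stringent call came from replicate 2 alone. Aqp4 (chr18:15389496-15410982, minus strand) had 4 TSSs and no peak at the first of them. Its intronic peak of 0.482 in replicate 1 lay 985 bp from an internal TSS, and the overlapping peak of 0.380 in replicate 2 lay 1008 bp away, so the 1 kb limit split what was 1 site. A second intronic Aqp4 peak, 0.666 and 0.821, was present in both libraries, 1408 and 1423 bp from a TSS.

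Both connexin genes had weak promoters. Gja1 (chr10:56377330-56402513, plus strand) had a peak of 0.327 in replicate 2, 10 bp before its start, and none in the shorter list of replicate 1; the longer list of replicate 1 gave 0.416. Gjb6 (chr14:57123303-57133611, minus strand) had 0.600 and 0.460 in the untranslated first part of the gene. These values stood at percentiles 2.00 and 2.44 of all genes with a promoter peak.

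The metabolic genes ranged from the strongest promoter to none. Glul (chr1:153899944-153909723, plus strand) had 3.65 and 3.78, at percentiles 47.7 and 62.8 of genes with a promoter peak. Its peak also lies within 1 kb of starts of Teddm2 and Mir8114, so the signal cannot be given to Glul alone. Aldoc (chr11:78322968-78327781, plus strand) had 2.65 and 2.57 over its start, at percentiles 34.0 and 44.8. Aldh1l1 (chr6:90486427-90600203, plus strand) had no promoter peak in either list of either library, and 0 bases at a false discovery rate of 0.001 near its TSSs in each library. Its gene record starts at a noncoding transcript, and no peak of the shorter lists lay within 1 kb of that end. With all TSSs of the full annotation, replicate 2 gave Aldh1l1 a promoter peak of 0.981 and replicate 1 none.

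Gfap (chr11:102887336-102900912, minus strand) had no promoter peak at its 2 basic-set TSSs and 0 bases at 0.001 in either library. Its strongest peak that did not lie at the start of a neighbour was the printed site, 3.63 in replicate 1 and 1.85 in replicate 2, 3701 bp upstream of the nearest basic-set TSS. This site overlaps the 5′ end of the gene record at 102900912, where the full annotation starts a noncoding Gfap transcript. Counted from there, Gfap would have a promoter peak in both libraries with a mean of 2.74 ± 1.26 (SD, n = 2), so the answer for Gfap depends on the annotation. Sox9 (chr11:112782224-112787760, plus strand) had 4 promoter peaks in each library, the strongest 1.74 and 2.44. These stood at percentiles 21.2 and 42.5 of genes with a promoter peak, while 60.1% and 76.0% of the bases within 1 kb of its TSS were at 0.001 or lower, which is at percentiles 96.0 and 97.8 of all genes.

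Promoters rich in CpG are open in most tissues, and the 10 genes were placed in deciles of promoter CpG content (observed over expected, within 500 bp of the TSS) for that reason. Glul (decile 7), Slc1a2 and Sox9 (decile 8) lay where 89.9% and 92.2% of genes had a promoter peak in both libraries. Gfap and Aldh1l1 (decile 4) lay where 36.6% did. Slc1a3, Gja1 and Gjb6 (decile 5) lay where 67.5% did, but of these only Gjb6 had a promoter peak in both libraries. Aqp4, with a promoter peak in replicate 1 alone, was in decile 3. Aldoc was the exception among the open genes, with a CpG ratio of 0.228 in decile 3, where 15.4% of genes had a promoter peak in both libraries. The mean of these shares over the 10 genes was 58.1%, beside the 5 of 10 found.

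**Figure D2:**
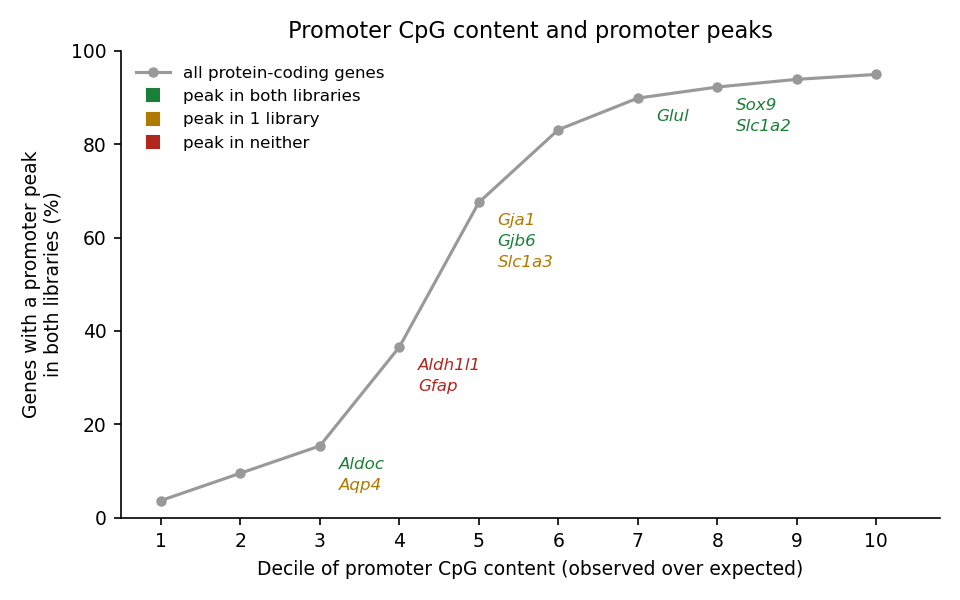
Share of all protein-coding genes with a promoter peak in both libraries (vertical axis, percent) by decile of promoter CpG content (horizontal axis, grey points), with each gene named beside its decile in a colour for a peak in both libraries, 1 library or neither. Aldoc has a peak in both libraries although its decile is at 15.4%.

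The density of distal peaks, more than 1 kb from every basic-set TSS, lay above that of the median gene. Replicate 1 gave a median of 4.31 per 100 kb over the 10 genes and replicate 2 one of 6.03 (mean 5.17 ± 1.22, SD, n = 2), beside 1.73 and 3.18 over all protein-coding genes. In replicate 1, 8 of 10 genes were above the all-gene median, and in replicate 2, 9 of 10. With the longer peak lists these counts were 5 and 6 of 10. Gene length was not matched here, and small windows hold few peaks, so each gene is given with its own count below. With equal numbers of peaks in the libraries the medians were 4.31 and 2.88, beside 1.73 and 1.77. With all TSSs of the full annotation they were 3.17 and 6.03, beside 1.36 and 2.81. The printed Gfap site, counted as distal throughout, would not be distal in that setting. With the shorter lists and basic-set TSSs, the other gene lists also lay above the all-gene medians, so this density is not particular to the 10 genes. In replicates 1 and 2 the medians were 5.02 and 7.45 for neurons, 7.41 and 6.51 for oligodendrocytes and 2.58 and 3.74 for precursors. Microglia had 4.31 and 7.47, endothelium 3.19 and 4.18, other astrocyte genes 3.63 and 4.75, and paralogues 3.07 and 5.96.

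**Figure D3:**
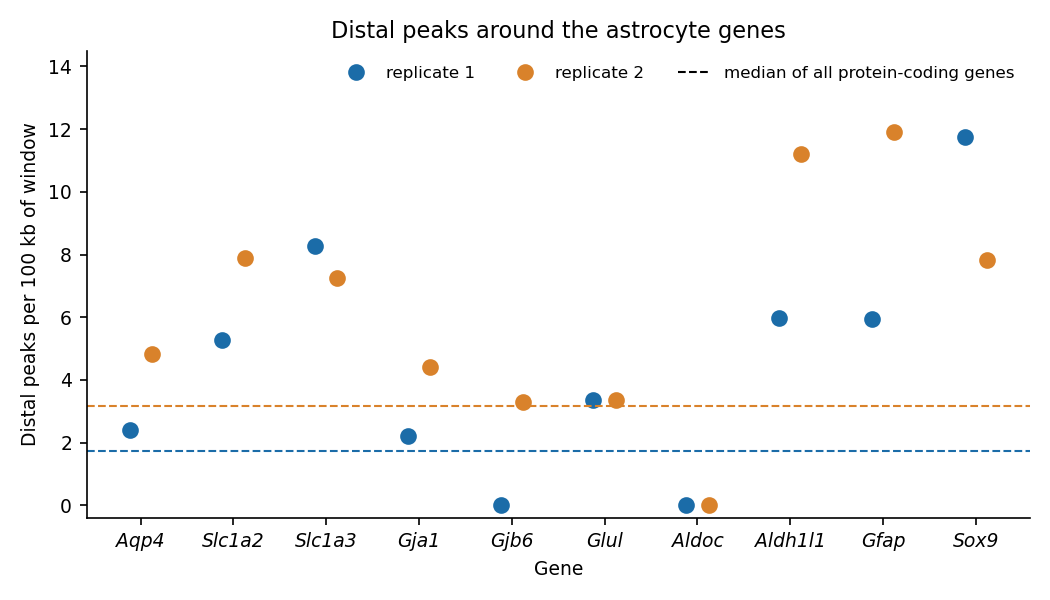
Distal peaks per 100 kb of window (vertical axis) for each gene in replicate 1 (blue) and replicate 2 (orange), with dashed lines at the medians of all protein-coding genes, 1.73 and 3.18. Aldoc is at 0 in both libraries, and Gfap, Aldh1l1 and Sox9 reach values above 10 in 1 library.

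The 2 genes without a promoter peak at their basic-set TSSs had some of the strongest distal sites. Aldh1l1 had 8 distal peaks in replicate 1 and 15 in replicate 2 (5.98 and 11.2 per 100 kb), and 3 of its intronic peaks stood out. The peak at chr6:90515141-90515300 had a signal of 6.00 in replicate 1 and 1.97 in replicate 2. The peak at chr6:90538061-90538240 had 5.88 and 2.48, and that at chr6:90506941-90507120 had 4.15 and 3.19. All 3 lie inside the gene record but upstream of its basic-set TSSs, by 35489, 12549 and 43669 bp. Gfap had 2 and 4 distal peaks (5.96 and 11.9 per 100 kb), among them a weak coding-exon peak of 0.930 and 0.874.

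Among the transporters, Slc1a2 had 8 and 12 distal peaks and Slc1a3 8 and 7. Within Slc1a2, neighbouring intronic peaks at chr2:102703615-102703870 and chr2:102704961-102705152 had 1.12 and 1.17 in replicate 1 but 2.84 and 2.86 in replicate 2. Other Slc1a2 intron peaks went the other way: those of 2.34 and 1.72 in replicate 1, at chr2:102675381-102675560 and chr2:102682281-102682459, had no overlapping peak in the shorter list of replicate 2. Around Slc1a3 the stronger peaks lay past the 3′ end of the gene, from 8625457 to 8633660, with up to 2.56 in replicate 1 and 1.98 in replicate 2. Aqp4 had 1 and 2 distal peaks.

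Of the remaining genes, Gja1 had its strongest peak 7930 bp upstream of the start, 4.03 in replicate 1 and 1.95 in replicate 2, more than its promoter in either library. Glul had 1 distal peak in each library, 4744 bp upstream in an intron of Teddm2, with 2.70 and 2.38. Sox9 had 3 and 2 distal peaks, all below 1 in signal. Aldoc had 0 in both libraries, and Gjb6 0 and 1. The strongest peak in the Aldoc window, 6.08 and 5.11, lay at the start of its neighbour Pigs, and that in the Gfap window, 5.59 and 5.07, at the starts of Ccdc103 and Eftud2.

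**Figure D4:**
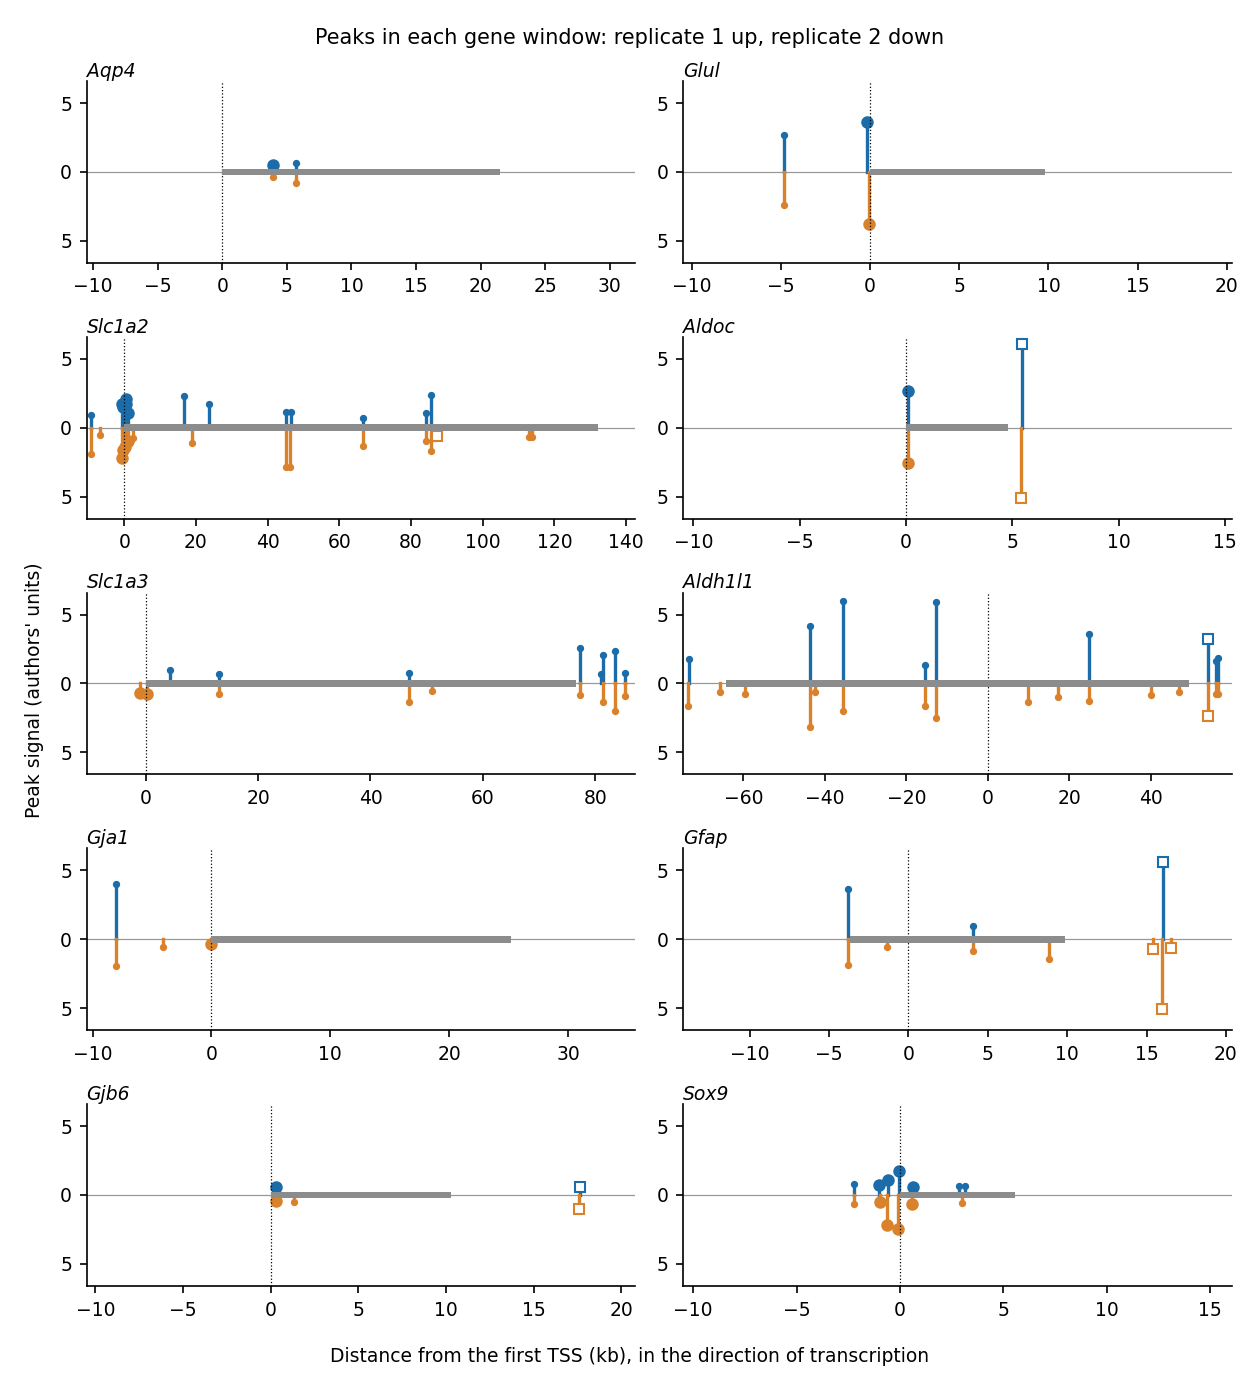
Peaks of the shorter lists in the window of each gene, as signal in the units of the authors (vertical axis, replicate 1 upward in blue and replicate 2 downward in orange) against distance from the first basic-set TSS in kb (horizontal axis, transcription to the right). Grey bars are gene records, large circles promoter peaks of the gene, open squares peaks at the start of another gene and small dots other peaks; the tallest intronic peaks of Aldh1l1 reach 6.00 and 5.88 in replicate 1.

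Over all windows, 49 peaks of replicate 1 and 68 of replicate 2 lay around the 10 genes. Of these, 45 (91.8%) and 44 (64.7%) overlapped a peak of the other library, beside 85.8% and 56.1% of all peaks. Merged across libraries they gave 70 regions, of which 42 were in both, 4 in replicate 1 only and 24 in replicate 2 only. Footprints inside these peaks numbered 14.9 and 13.5 per kb of peak, beside 13.1 and 11.5 for all peaks. Of the 198 and 246 footprints in the windows, 51.0% and 42.3% overlapped a footprint of the other library, beside 51.6% and 35.4% of all footprints. For Gfap 12 of 16 and 12 of 17 did so, and for Gjb6 1 of 5 and 1 of 7.

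The CTCF consensus was first noticed in the printed sequences. It was searched afterwards in the distal peaks on both strands, with at most 1 mismatch over its 12 positions. It was found in 14 of 32 distal peaks in replicate 1 (43.8%, beside 28.9% of all distal peaks) and in 12 of 46 in replicate 2 (26.1%, beside 17.0%). These counts include the printed Gfap, Slc1a3 and Aldh1l1 sites that led to the search, so the shares of these genes are raised by that choice. In each library the Aldh1l1 window held more of these peaks than any other, some of them in an intron of its neighbour Slc41a3. The match had no mismatch in 9 of the 14 and 8 of the 12. In 11 of the 14 and 9 of the 12 it lay wholly inside a footprint, of 28 to 42 bp in replicate 1 and 26 to 39 bp in replicate 2. Mismatches and footprints over the match were not counted for all distal peaks. The median widest footprint in a peak with a match was 30.5 and 28.5 bp for these genes. It was 29 and 28 bp over all distal peaks with a match. The median signal was 2.35 with a match and 0.976 without in replicate 1, and 1.77 and 0.797 in replicate 2. Over all distal peaks these medians were 1.83 and 0.963, and 1.21 and 0.767. Glul, Gfap, Slc1a2, Slc1a3 and Aldh1l1 had such a peak in both libraries, and Sox9 in replicate 1 alone.

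Peaks with and without the consensus differed in how their signal compared between the libraries. Of 26 distal peaks that paired one to one, 13 held the consensus, and 12 of these were higher in replicate 1. The median log2 ratio of replicate 1 to replicate 2 over the 13 was 0.97 (SD 0.83, n = 13 peaks). Of the 13, 6 were more than 2-fold higher in replicate 1. The Aldh1l1 window gave those at log2 ratios of 1.61, 1.47, 1.28, 1.25 and 1.09, some of them in Slc41a3, and the Slc1a3 window gave 1.62. The 13 were therefore not spread evenly over the 10 genes. Of the 13 without the consensus, 5 were higher in replicate 1, with a median of -0.29 (SD 0.68). The exception with a match was the Slc1a2 intron peak of 1.12 and 2.84. The same split was seen over all distal pairs of the genome, of which these are a part: 81.2% of 12261 pairs with the consensus and 36.0% of 27950 without it were higher in replicate 1, with medians of 0.63 and -0.21. At promoters with a peak in both libraries, 75.5% of all genes were higher in replicate 1. This held for 7 of 7 oligodendrocyte markers, 4 of 5 precursor markers, 6 of 9 neuronal markers, 2 of 3 microglial markers and 9 of 11 paralogues. It held for 2 of 5 of the astrocyte genes described here and for 19 of 26 other astrocyte genes. The summed promoter signal, each sum taken over the genes called in that library, was 54442 and 45776 for all genes. It was 10.4 and 5.40 for oligodendrocyte, 10.7 and 9.02 for precursor and 21.8 and 18.9 for neuronal markers. Microglial markers gave 5.48 and 4.98, endothelial markers 1.68 and 0, and paralogues 26.5 and 22.0. The sums were 11.2 and 12.5 for the 10 genes and 56.0 and 54.3 for the 40 other astrocyte genes. Over all peaks paired one to one, the log2 ratio also differed with the share of G and C bases. Its median was -0.15 for peaks at 45 to 50% and 0.71 for those at 75% or more. The parts of cell makeup and of base content in these differences were not tested.

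**Figure D5:**
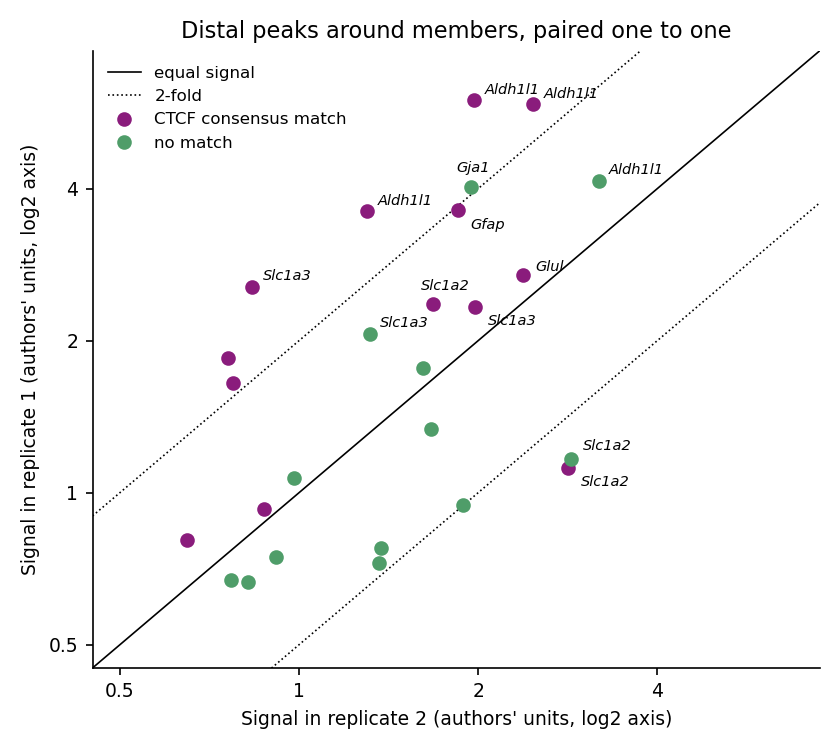
Signal in replicate 1 (vertical axis) against replicate 2 (horizontal axis), both in the units of the authors on log2 axes, for 26 distal peaks around the 10 genes; purple points hold the CTCF consensus and green points do not, and the lines mark equal signal and 2-fold differences. Of the 13 purple points 12 lie above the line of equal signal.

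Letters recognised by factors known from astrocytes were found at shares on either side of those of all distal peaks, and more often below. The NFI letters TTGGCA were found in 5 of 32 distal peaks (15.6%, beside 15.6% of all distal peaks) in replicate 1 and in 8 of 46 (17.4%, beside 18.5%) in replicate 2. The SOX letters ACAATG were found in 9.38% and 10.9%, beside 7.35% and 9.39%, but the second SOX pattern, ACAAAG, in 3.13% and 10.9%, beside 11.7% and 14.9%. The STAT letters TTCNNNGAA were found in 3.13% and 4.35%, beside 5.27% and 7.01%, the RBPJ letters TGGGAA in 15.6% and 13.0%, beside 19.5% and 22.2%, and the RFX letters GTTGCCA in 6.25% and 8.70%, beside 4.13% and 4.89%. The AP-1 letters TGANTCA were found in 3.13% and 8.70%, beside 12.3% and 18.3%. Other patterns were searched too. The LHX letters TAATTA were in 0% and 0%, beside 2.01% and 4.15%, and the GR letters AGAACA in 3.13% and 19.6%, beside 15.3% and 19.7%. The E-box CAGCTG was in 12.5% and 13.0%, beside 16.9% and 17.7%, and the GC box GGGCGG in 0% and 4.35%, beside 9.55% and 7.03%. EGR and CRE letters were below in both libraries. TATA letters were in 6.25% and 6.52%, beside 5.06% and 9.12%. All were searched on both strands, and with 32 and 46 peaks a single peak moves these shares by several points. The intronic Aqp4 peak of 0.666 and 0.821 held the SOX letters ACAATG, the RFX letters and the RBPJ letters in both libraries, and the NFI letters in replicate 2 alone.

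Of 40 other genes known from astrocytes, 28 had a promoter peak in replicate 1, 31 in replicate 2 and 26 in both (65.0%, beside 58.7% of all genes), and 7 in neither. The highest were the secreted chaperone Clu with 6.42 ± 0.249 (mean, SD, n = 2), the differentiation inhibitor Id4 with 4.64 and 4.32, the protease inhibitor Cst3 with 4.49 and 3.39, the metal-binding Mt1 with 4.10 and 2.78 and the glutamate receptor Grm3 with 2.17 and 4.01. Clu had a higher promoter signal than each of the 10 genes in both libraries. Cldn10, Gpr37l1, Lcat, Slc39a12 and Slc7a10 were among the 7 with none in the shorter lists. In the longer lists Cldn10 (0.587 and 0.487), Gpr37l1 (0.924 and 0.821) and Slc39a12 (0.205 and 0.300) had one in both libraries. Lcat (0.794) and Slc7a10 (0.440) had one in replicate 2 alone. With the longer lists 34 of the 40 had one in both libraries, beside 63.3% of all genes. Of 23 paralogues with a unique match, 11 had a promoter peak in both libraries (47.8%, beside 58.7% of all genes). Sox8, a SoxE factor like Sox9, had 4.01 and 3.52, above Sox9 in both libraries, while Sox10, the SoxE factor of oligodendrocytes, had no promoter peak in either shorter list. The neuronal glutamate transporter Slc1a1 had 2.83 and 2.08, and Slc1a4, a neutral amino acid transporter, 3.71 ± 0.128 (SD, n = 2), in both libraries above both astrocyte glutamate transporters.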

How the data were processed

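The 2 DNase-seq libraries were analysed from files the authors made on mm10. Per the notes deposited with the files, peaks (1 signal value each), footprints and per-base false discovery rates come from 1 library at a time, with no pooling. Aligner, caller and versions were not given in the sources used here. How the authors scaled the deposited signal is unknown. The deposited q-values (false discovery rates) are listed up to 0.05. The score in the deposited footprint lists is constant and only positions were used. Genes and TSSs came from the GENCODE M21 basic annotation, without Aldoa, whose symbol is not unique. Overlaps (1 bp or more) and summaries used python 3.11.15, numpy 2.4.6, pandas 2.3.3 and pysam 0.24.0, tested on simulated intervals; figures used matplotlib 3.10.9. The members, lists and motifs were chosen with earlier results of these data known. All members are named; from each other list, up to 5 genes with the highest mean promoter signal and up to 5 with no promoter peak could be named. Printed sites follow the rule of strongest shared peak (by mean signal, in introns, between genes or at the gene's own start), except that peaks at the start of another gene alone were passed over after their values were seen. Sox10 and the CTCF consensus were also chosen after values were seen. Peaks of 1 list can overlap each other, as at Slc1a2. The hybrid's reads are placed on 1 reference build, and no allele was analysed. Alternatives were the longer lists, promoter distances of 500 bp and 2 kb, other windows, equal peak numbers, other TSS sets and single libraries.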

Additional observations from a re-analysis of the deposited data

How the results depend on the processing

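The number of astrocyte genes with a promoter peak in both libraries was 5 and stayed within 1.5 times that under the planned changes: 7 with the longer lists, 5 within 500 bp, 6 within 2 kb, 4 with equal numbers of peaks and 6 from the 5′ end of the gene record. With all TSSs of the full annotation, chosen after seeing the data, it was 6, and in single libraries 6 to 7. For the 40 other astrocyte genes the count of 26 became 34 with the longer lists, beside 63.3% of all genes. It was 26 within 500 bp, 27 within 2 kb and 24 with equal numbers of peaks. From the 5′ end of the gene record it was 26, with the full annotation 28, and in single libraries 28 to 31. The median of distal peaks per 100 kb, 5.17, moved to 6.91 with the longer lists and to 3.596 with equal numbers of peaks. It was 4.60 with the full annotation and 4.31 to 6.03 in single libraries. With the longer lists only 5 and 6 of 10 genes were above the median of all genes. The share of distal peaks with the NFI letters, 16.5%, was 18.9% with the longer lists, 20.9% in gene bodies alone, 18.4% with 50 kb on each side and 10.1% when only footprints with 5 bp on each side were searched, and 15.6% to 17.4% in single libraries. The share of peaks found in the other library, 78.3%, was 54.4% when the overlap had to cover at least 50% of both peaks, and 64.7% to 91.8% for the peaks of 1 library. Footprints per kb of peak, 14.2, were 10.96 in the longer lists, and 13.5 to 14.9 in single libraries. Promoter signals of the 5 genes with a peak in both libraries left 1 SD in 3 settings, all for Slc1a2. Its 2.12 became 1.83 within 500 bp, 2.46 within 2 kb and 2.26 with the full annotation. The 36 that stayed within 1 SD do not measure robustness. Each of 2 single libraries lies within 1 SD of their mean by construction, and several settings returned the same peak. Gained or lost peaks were left out of this count. Gfap gained a mean of 2.74 from the 5′ end of the gene record, and with equal numbers of peaks Gjb6 lost its replicate 2 promoter peak. The causes were not tested. No paired analysis was possible because there is 1 group. Depth limits these values, since replicate 2 has more listed peaks and read totals were not used.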

Other observations

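Promoter peaks of the other cortical cell types can be read beside their promoter CpG content in the same way. The 9 of 10 neuronal genes with a promoter peak in both libraries stand beside a mean of 66.5% for genes of the same CpG deciles. For oligodendrocytes 7 of 10 stand beside 53.0%, for oligodendrocyte precursors 5 of 10 beside 48.1%, for microglia 3 of 10 beside 26.9%, and for endothelium 0 of 10 beside 39.8%. The 5 of 10 astrocyte transport and identity genes stand beside 58.1%, and the 26 of 40 other astrocyte genes beside 60.7%. For the paralogues 11 of 23 stand beside 60.1%. These are descriptions of short lists in 2 libraries, with no test.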
